A study of Mus musculus with 24 samples.

Results

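Wounds of diabetic mice that had received medium from M2a macrophages (CMA) were set against wounds that had received medium from M2c macrophages (CMC). The labels' group entry chose the libraries, 5 of CMA and 5 of CMC out of 24 in the series. Of the 54232 genes of the count tables, the 18978 that passed a filter on low counts were tested. RNA was taken from whole wounds on the backs of male C57BLKS/J mice with the genotype Lepr (db/db), a leptin receptor mutation that makes mice obese and diabetic. Punch biopsies 6 mm across were made at 16 weeks of age, an alginate bandage was laid on at once and renewed on day 3, and the wounds were collected on day 10, at 17.5 weeks. In CMA and CMC the bandage held medium conditioned by primary macrophages polarised to M2a or to M2c. The 6 control wounds (Ctrl), shown here as a reference level, had a control alginate bandage. Mutation, sex, strain, bandage material and times were shared by all of these groups. The stimuli that polarised the macrophages, and what the media contained, are not stated in the sources used here. The series' description counts mice, and the labels do not say whether a mouse gave more than 1 wound, so a p-value measures the spread between these libraries.

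M2a is the usual name for macrophages exposed to IL-4 or IL-13, which act through STAT6 on genes such as Arg1, Retnla, Chil3 and Mrc1 and are tied to tissue building. M2c is the name for macrophages exposed to IL-10, glucocorticoid or TGF-beta, which carry Cd163 and Mertk and are tied to clearance of dead cells and to the end of inflammation. In a skin wound, macrophages make growth factors for keratinocytes, fibroblasts and vessels, and in db/db mice their inflammatory state is known to last longer than in healthy mice.

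The 10 libraries held between 8323331 and 11632421 counts, with overlapping ranges in CMA (up to 10259818) and CMC (from 8561677). Ddx3y, on the Y chromosome, was at 75.97 CPM or more (CPM being counts adjusted for library size) and Xist at 0.577 CPM or less in each of them, as the label male would have it. Keratinocyte (Krt14), fibroblast (Col1a1, Pdgfra), macrophage (Adgre1) and endothelial (Pecam1) markers were present in all 10. Lepr ran from 2.88 to 6.98 CPM, a gene total that does not show the db mutation. No 2 libraries agreed within sampling noise, since the smallest chi-square per degree of freedom of any of the 45 pairs was 6.74.

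No gene separated M2a from M2c treated wounds in the test across all genes. Of 18978 genes tested with edgeR's quasi-likelihood test, 0 had a Benjamini-Hochberg adjusted p under 0.05 (0% higher and 0% lower in CMA), and the smallest adjusted p was 0.795. DESeq2 also called 0 genes (smallest adjusted p 0.462), as did limma voom with sample quality weights (0.729) and edgeR on the 10 libraries alone (0.646). At an unadjusted p under 0.05, edgeR had 1169 genes, DESeq2 1382, limma 1267 and edgeR on the 10 libraries 1278, where 5% of the genes tested would be 949. Of the 1169 genes, 728 were higher in CMA (3.84% of those tested) and 441 lower (2.32%). That count was 625 without CMA 3 and 646 without CMC 2, and both are below 5% of the genes tested.

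After the scaling, which itself centres the fold changes, 49.1% of genes were higher in CMA and the median log2 fold change was -0.0037. Among the 18573 genes with a mean log2 CPM of at least 0, 84.4% had a 95% interval of the fold change that lay within 2-fold in either direction, and the median interval reached 0.34 on the log2 scale to each side. All 5 CMA libraries stood above all 5 CMC libraries for 117 genes (0.617%), and below them for 73 (0.385%). The 10 libraries can be divided into 5 and 5 in 252 ways. A gene without overlap therefore has an exact two-sided permutation p of 0.0079, which covers both directions. Beside the part of that p for a single direction, the share of lower genes was close and that of higher genes larger. Genes measured in the same wounds are not independent, and whether either share differs from chance was not tested. The values below describe the genes and gene groups with the smallest p or of most interest for the 2 macrophage states. None of these differences passed the test, so "higher" and "lower" give the direction of the estimate.

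**Figure D1:**
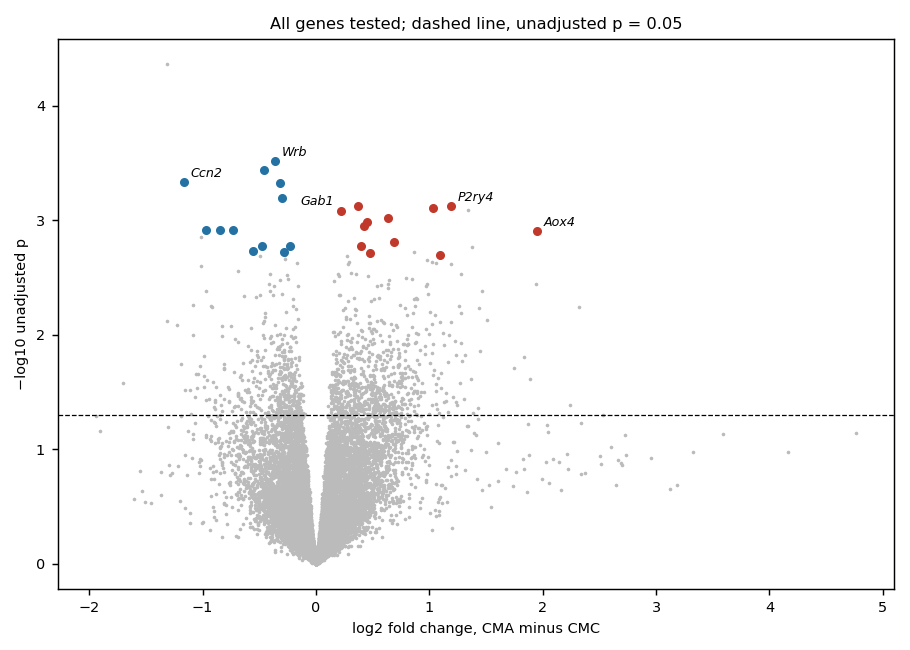
Each of the 18978 genes tested is a point, with the log2 fold change (CMA minus CMC) on the horizontal axis and the unadjusted p on a negative log10 scale on the vertical axis. Red and blue points are the 12 protein-coding genes with the smallest p in each direction, and 0 genes have an adjusted p under 0.05.

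The protein-coding genes with the smallest p, 12 higher and 12 lower in CMA, mostly had modest differences. Fold changes among the higher genes ran from 0.22 (Gab1) to 1.95 (Aox4) on the log2 scale, and among the lower ones from -0.23 (Vcpip1) to -1.17 (Ccn2). The adjusted p of all 24 was 0.795 in edgeR's test. CMA and CMC did not overlap for 7 of the higher and 8 of the lower genes, which reflects how they were chosen, since these genes had the smallest p of 18978. For 11 genes in each direction, CMA and CMC lay on opposite sides of the Ctrl estimate. The same choice of genes sets the 2 estimates apart, and the share of such genes among all genes tested was not counted. The library kit does not mark the strand, and 13 of the 24 share exon sequence with a gene on the other strand, so that part of their counts may come from that gene.

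Among the 12 genes higher in CMA was P2ry4 (ENSMUSG00000044359, chromosome X, 100590154 to 100594869), a receptor for extracellular UTP. Its level was 6.39, 7.14, 11.8, 9.14 and 6.95 CPM in CMA 1 to 5 and 5.95, 2.13, 4.07, 4.64 and 1.55 CPM in CMC 1 to 5. Every CMA wound was above every CMC wound, and the 6 Ctrl wounds ran from 2.61 to 6.43 CPM with a median of 4.31. The log2 fold change was 1.19 ± 0.31 (SE), with a 95% interval of 0.56 to 1.82 and an unadjusted p of 7.51e-04 in edgeR.

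Gab1 (ENSMUSG00000031714, chromosome 8, 80764438 to 80880519) is a docking protein that carries signals of receptor tyrosine kinases such as Met and the EGF receptor. It stood at 89.5, 85, 92.1, 77.8 and 82.4 CPM in CMA 1 to 5 and 76.6, 68.4, 77.1, 70.5 and 72.4 CPM in CMC 1 to 5. The groups did not overlap, by the small distance between CMA 4 and CMC 3, and the log2 fold change was only 0.22 ± 0.058.

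Aox4 (ENSMUSG00000038242, chromosome 1, 58210397 to 58268597), an aldehyde oxidase known from skin, had the largest fold change of the 12 at 1.95 ± 0.52. Its level was 22.1, 12.5, 99.6, 21.8 and 12.8 CPM in CMA 1 to 5 and 11.2, 3.51, 8.84, 12.6 and 7.6 CPM in CMC 1 to 5. CMA 3 stood far above the other 9 libraries, and without it the log2 fold change was 0.98.

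Agouti (symbol a, ENSMUSG00000027596, chromosome 2, 154791402 to 155051012), a secreted signal that switches pigment synthesis in follicle melanocytes, was near the limit of detection at 1.47, 1.45, 1.35, 0.962 and 1.41 CPM in CMA 1 to 5 and 0.449, 0.531, 0.815, 0.696 and 0.605 CPM in CMC 1 to 5, without overlap. Reep4, which keeps the endoplasmic reticulum off mitotic chromosomes, had 43.3, 52.8, 45.4, 40.6 and 38 CPM in CMA 1 to 5 and 32.8, 27.8, 35.6, 33.2 and 34.4 CPM in CMC 1 to 5, and all CMA wounds were above all CMC wounds. Plpp6, a lipid phosphatase, Ppih, a cyclophilin of the spliceosome, and Dnajc17, a DnaJ co-chaperone whose exons overlap Zfyve19, did not overlap either, with log2 fold changes of 0.45, 0.40 and 0.47.

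Ranges met or crossed for the other 4 genes higher in CMA. Ppm1d, the phosphatase that ends p53 signalling after DNA damage, had a log2 fold change of 0.37, and Tmem41a, a membrane protein, 0.64. Pla2g4b, a cytosolic phospholipase A2 that overlaps Sptbn5, was at 1.03, and at 0.74 without CMA 3. The gene 9930012K11Rik was at 0.69.

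The largest fold change among the 12 genes lower in CMA was that of Ccn2 (ENSMUSG00000019997, chromosome 10, 24595442 to 24598683), the matricellular protein also called CTGF, which TGF-beta and the YAP-TEAD factors are known to induce. It stood at 19.4, 21.2, 28.9, 31.9 and 28.2 CPM in CMA 1 to 5 and 62.8, 58.2, 81, 31.9 and 57.2 CPM in CMC 1 to 5. Ctrl wounds ran from 16.7 to 41 CPM with a median of 21.4. CMC 1, 2, 3 and 5 were above every CMA and every Ctrl wound, whereas CMC 4 (31.90 CPM) exceeded CMA 4 (31.86 CPM) by almost nothing. The log2 fold change was -1.17 ± 0.28, with an interval of -1.75 to -0.58 and an unadjusted p of 4.67e-04. Against Ctrl it was 0.034 for CMA and 1.2 for CMC, values that share the 6 control libraries. Leaving out each of the 10 libraries in turn gave between -1.32 and -1.02.

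Rapgef3 (ENSMUSG00000022469, chromosome 15, 97744770 to 97767972), also called Epac1, is the exchange factor through which cyclic AMP activates Rap1. It stood at 16.1, 14.6, 16.2, 12.3 and 14.1 CPM in CMA 1 to 5 and 18.4, 17.1, 24.4, 19.6 and 21.2 CPM in CMC 1 to 5. The groups did not overlap, and the log2 fold change was -0.46 ± 0.11 with an unadjusted p of 3.62e-04. Exons of 2 transcripts on the other strand lie across it.

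Wrb (ENSMUSG00000023147, chromosome 16, 96145407 to 96157852), a receptor for inserting tail-anchored proteins into the endoplasmic reticulum, had the smallest p of the 24, at 3.06e-04. Its level was 19.3, 16.5, 18.1, 16.8 and 19 CPM in CMA 1 to 5 and 26.7, 22.1, 25.1, 19.8 and 21.9 CPM in CMC 1 to 5, without overlap, and its log2 fold change was -0.37 ± 0.086. The other 5 genes lower in CMA without overlap were Mknk1, a kinase of the translation factor eIF4E (-0.32), Dnajb4, an Hsp40 chaperone (-0.30), Vcpip1, a deubiquitinase that works with the p97 ATPase (-0.23), Phax, an adaptor for the nuclear export of small nuclear RNAs (-0.28), and Znrd1as (-0.97). Dnajb4 stood at 38.5, 36.8, 35.1, 37.3 and 36.4 CPM in CMA 1 to 5 and 42.4, 45.6, 46.2, 45.1 and 47.2 CPM in CMC 1 to 5.

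Lhx6, a LIM homeobox transcription factor, Grrp1, the tetraspanin Tspan4 and Nmnat1, which makes NAD in the nucleus, had overlapping groups and log2 fold changes of -0.84, -0.73, -0.47 and -0.55. All 24 genes kept their direction under each alternative that gave them a value, leaving out single libraries included.

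**Figure D2:**
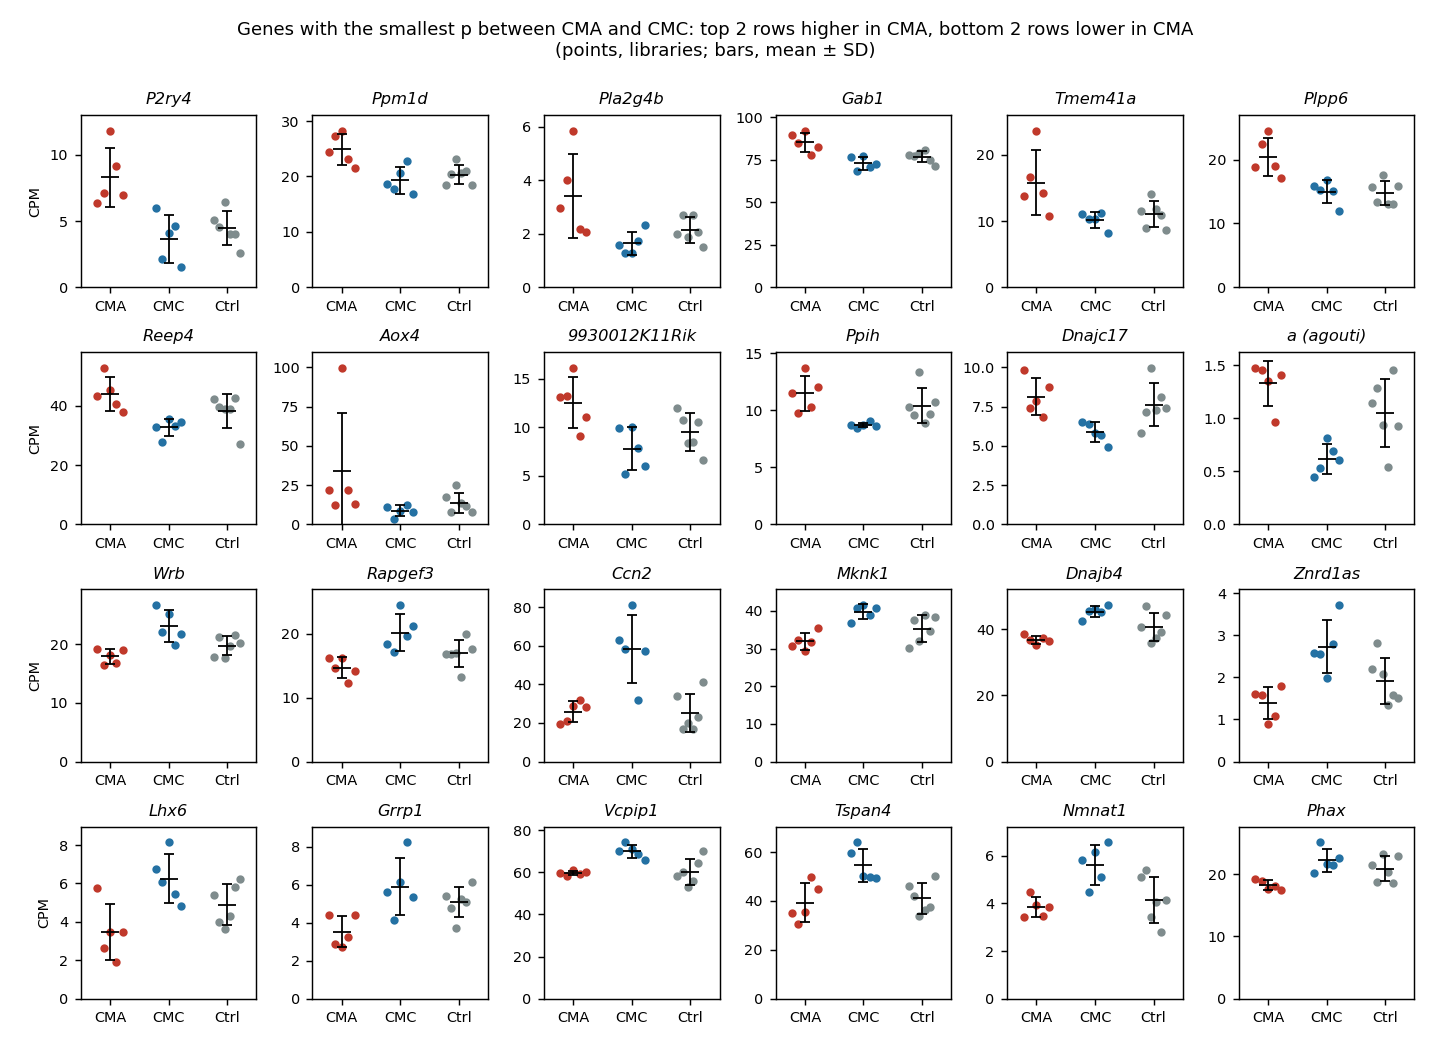
Points are CPM in single libraries of CMA (red), CMC (blue) and Ctrl (grey) on axes that start at 0, with bars for the mean ± SD, for the 12 genes higher (top 2 rows) and the 12 lower (bottom 2 rows) in CMA. Ccn2 stands between 57.2 and 81.0 CPM in 4 CMC wounds and at 31.9 CPM or less in all CMA wounds, and the high point of Aox4 is CMA 3.

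Promoters of these genes were read for the motifs of factors that the background ties to the 2 macrophage states, from 250 bases before to 50 after the start site. RefSeq's table (GRCm38.p6) has an entry for 17 of the 24, 9 higher and 8 lower in CMA. All motifs were searched on both strands. The STAT6 motif was TTC and GAA with 4 bases between, the general STAT motif TTC and GAA with 3 between, the glucocorticoid receptor motif ACA and TGT with 3 between, and the AP-1 motif TGA and TCA with 1 between. These are held by 6.95%, 8.3%, 6.85% and 7.81% of the 32851 promoters in the table. A gene can have several promoters there, and a named gene was counted if any of its promoters held the motif. The shares per promoter are therefore not shares per gene. The STAT6 motif was in Rapgef3, Lhx6 and Znrd1as, all lower in CMA, and in 0 of the 9 higher genes. The general STAT motif was in Gab1, and the glucocorticoid receptor motif in P2ry4, Ppih and Tmem41a, all higher in CMA. The AP-1 motif was in Aox4, Lhx6, Tspan4 and Znrd1as. A match describes letters in the window and shows no binding. 4 of these promoters follow, 1 for each motif and each from a gene described above, 5′ to 3′ on the strand of the gene with the motif in capitals. They are Rapgef3 (chr15:97767617-97767916, minus strand, STAT6 motif 16 bases before the start), Gab1 (chr8:80880430-80880729, minus strand, STAT motif 12 bases before), P2ry4 (chrX:100594820-100595119, minus strand, glucocorticoid receptor motif 92 bases before) and Aox4 (chr1:58210147-58210446, plus strand, AP-1 motif 48 bases before).
Rapgef3: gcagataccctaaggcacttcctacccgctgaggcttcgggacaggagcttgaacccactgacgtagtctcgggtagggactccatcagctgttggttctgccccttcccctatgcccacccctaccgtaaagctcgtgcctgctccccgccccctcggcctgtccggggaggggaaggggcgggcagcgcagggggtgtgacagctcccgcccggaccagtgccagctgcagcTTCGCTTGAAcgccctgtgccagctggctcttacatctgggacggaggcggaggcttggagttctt
Gab1: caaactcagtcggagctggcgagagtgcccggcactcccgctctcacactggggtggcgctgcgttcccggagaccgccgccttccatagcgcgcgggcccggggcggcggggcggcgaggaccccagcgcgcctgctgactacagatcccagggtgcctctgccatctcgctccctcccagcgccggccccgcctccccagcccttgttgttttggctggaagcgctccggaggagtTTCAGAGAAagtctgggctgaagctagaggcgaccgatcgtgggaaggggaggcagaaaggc
P2ry4: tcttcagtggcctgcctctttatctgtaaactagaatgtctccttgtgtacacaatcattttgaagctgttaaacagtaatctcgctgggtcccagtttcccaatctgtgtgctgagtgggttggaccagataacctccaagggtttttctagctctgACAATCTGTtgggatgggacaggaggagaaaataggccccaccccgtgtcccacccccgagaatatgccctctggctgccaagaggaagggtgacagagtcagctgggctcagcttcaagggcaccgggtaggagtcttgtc
Aox4: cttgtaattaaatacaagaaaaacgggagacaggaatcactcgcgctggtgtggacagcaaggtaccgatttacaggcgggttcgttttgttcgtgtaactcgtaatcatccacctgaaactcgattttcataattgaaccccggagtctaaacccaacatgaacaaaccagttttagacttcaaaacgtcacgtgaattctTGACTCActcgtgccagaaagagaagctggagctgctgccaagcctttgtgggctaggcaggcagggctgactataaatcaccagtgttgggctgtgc

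Genes that mark the 2 macrophage states came next, read here in wounds that had received medium. They are given as lists, described by the number of tested members higher or lower in CMA and by their median log2 fold change. Of 24 tested genes that IL-4 and STAT6 induce in macrophages (the M2a list), 9 were higher and 15 lower in CMA, with a median of -0.063. Of 24 genes that IL-10 or glucocorticoid induce (the M2c list), 2 were higher and 22 lower in CMA, with a median of -0.24. No member of either list was called. The M2a direction rested on single libraries, since without CMA 3 its median was 0.0053 and 13 of 24 genes were higher in CMA. The median was -0.19 without CMA 2 and 0.014 without CMC 3. Each list had 1 member at an unadjusted p under 0.05, lower in CMA, where 2.32% of all genes were. The downward direction of the M2c list was not particular to it. Medians were -0.29 for pan-macrophage genes, -0.34 for complement and -0.36 for inflammatory (M1) genes, and most members of each were lower in CMA.

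Fcgr2b, the inhibitory Fc receptor, was that member of the M2a list, at 83.2, 74.4, 71.8, 115 and 90.2 CPM in CMA 1 to 5 and 133, 191, 117, 124 and 87 CPM in CMC 1 to 5 with a log2 fold change of -0.59 ± 0.27. Egr2, a transcription factor that IL-4 induces, pointed the other way at 0.38. The best known M2a markers were uneven between wounds of 1 group. Arg1, the arginase that makes ornithine, stood at 263, 139, 131, 430.5 and 30.1 CPM in CMA 1 to 5 and 456, 203, 310.2, 134 and 44.7 CPM in CMC 1 to 5. Arg1 ranges of CMA and CMC overlapped widely, and the log2 fold change of -0.21 ± 0.79 took either sign as single libraries were left out. Retnla, a small secreted protein of IL-4 exposed macrophages, stood at 5.16, 31.1, 4.5, 8.29 and 6.1 CPM in CMA 1 to 5 and 5.5, 11.6, 7.45, 17.4 and 7.51 CPM in CMC 1 to 5. CMA 2 was the highest wound, and the log2 fold change of 0.15 became -0.71 without it. Chil3, Ccl24 and Mrc1 differed by -0.038, -0.11 and -0.34 (-0.21 without CMC 2), and Ccl17 had too few counts to be tested.

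In the M2c list, Selenop, the plasma selenium carrier, had the smallest p. Its level was 814, 782, 839, 1027 and 1301 CPM in CMA 1 to 5 and 1158, 2096, 1133, 1078 and 1379.6 CPM in CMC 1 to 5, a log2 fold change of -0.52 ± 0.20 (-0.32 without CMC 2), and its exons overlap Ccdc152. Cxcl13, the B cell chemokine that M2c macrophages make, was low but did not overlap, at 0.86, 0.847, 1.35, 0.962 and 1.31 CPM in CMA 1 to 5 and 1.46, 2.76, 1.4, 1.74 and 3.02 CPM in CMC 1 to 5. Cd163, the haemoglobin scavenger receptor and classic M2c marker, stood at 68, 111, 79.8, 177 and 93.9 CPM in CMA 1 to 5 and 115, 285, 104, 169 and 164 CPM in CMC 1 to 5. CMC 2 was the highest and CMA 1 the lowest, the ranges overlapped, and the log2 fold change was -0.66 ± 0.38, or -0.39 without CMC 2. Mertk, the receptor for dying cells, Il10 and Tgfb1 differed by -0.13, -0.26 (-0.47 without CMA 5 and -0.058 without CMA 2) and -0.13. In a bulk sample, fewer cells of a type and less RNA per cell cannot be told apart. Median log2 fold changes of the M2c list against Ctrl were -0.10 for CMA and 0.12 for CMC, with the same 6 controls in both, and the median of CMA minus CMC ranged between -0.37 (without CMA 4) and -0.18 (without CMA 2) as single libraries were left out.

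Inflammatory (M1) genes turned on single wounds. 14 of 17 tested members were lower in CMA, with a median of -0.36 (-1.1 without CMA 4 and -0.23 without CMA 2), and 0 had an unadjusted p under 0.05. Nos2 (ENSMUSG00000020826, chromosome 11, 78920787 to 78960254), which makes nitric oxide, stood at 8.36, 4.84, 2.59, 157 and 2.16 CPM in CMA 1 to 5 and 151, 141, 43.1, 11 and 1.9 CPM in CMC 1 to 5. It was above 40 CPM in CMA 4 and in CMC 1, 2 and 3 and far lower, down to 1.9 CPM, in the other 6. The log2 fold change of -1.0 ± 1.29 became -3.98 without CMA 4; without CMC 1 it was -0.50. Cxcl9 and Cd80, the members with the smallest p, differed by -0.58 and -0.69 (-1.1 without CMA 4). The log2 fold change of Socs3 was -0.72 (-1.2 without CMA 4 and -0.38 without CMC 2). Socs3, the feedback inhibitor that IL-6 and IL-10 induce, stood at 20.8, 23.8, 38.8, 86.9 and 32.2 CPM in CMA 1 to 5 and 103, 123, 41, 47.8 and 18.6 CPM in CMC 1 to 5, again with CMA 4 high among the CMA wounds.

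Glucocorticoid-responsive genes were lower in CMA for 17 of 20 tested members, with a median of -0.21 (-0.31 without CMA 4). 3 had an unadjusted p under 0.05, all lower. Fkbp5 (ENSMUSG00000024222, chromosome 17, 28399094 to 28517527), the co-chaperone of the glucocorticoid receptor that the hormone itself induces, stood at 70.5, 76.9, 57.6, 92 and 61.1 CPM in CMA 1 to 5 and 78.3, 105, 92.2, 104 and 108 CPM in CMC 1 to 5. CMC 2 to 5 were above all CMA wounds and CMC 1 was not, and the log2 fold change was -0.45 ± 0.15 with an unadjusted p of 0.00651. Cebpd, a transcription factor of the acute phase, stood at 15.4, 28.6, 20.1, 40.03 and 16.4 CPM in CMA 1 to 5 and 36.5, 69, 29.3, 33.3 and 34.1 CPM in CMC 1 to 5, a log2 fold change of -0.75 ± 0.26 with CMC 2 far above the rest, or -0.48 without it. Nr3c1, the receptor gene and the third of these members, named after its values were seen, had 144, 151, 130.004, 161 and 159 CPM in CMA 1 to 5 and 172, 197, 151, 164 and 170.3 CPM in CMC 1 to 5 and a log2 fold change of -0.20 ± 0.081.

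Tsc22d3 (GILZ), a further target of the hormone, stood at 61.4, 121, 64.6, 132 and 70.7 CPM in CMA 1 to 5 and 111, 159, 90.2, 98 and 159 CPM in CMC 1 to 5, with overlapping groups. Medians of the glucocorticoid list against Ctrl were 0.11 for CMA and 0.31 for CMC. Clock genes, some of which the same hormone regulates, were lower in CMA for 13 of 17 tested members (median -0.19, -0.065 without CMA 3). Per2 stood at 27.9, 25.5, 18.8, 35.2 and 27.1 CPM in CMA 1 to 5 and 41.1, 55.8, 35, 37 and 39.6 CPM in CMC 1 to 5, with a log2 fold change of -0.63 ± 0.20, and Nr1d2, a repressor of the clock loop, differed by -0.22. For Per2, CMC 1, 2, 4 and 5 were above all CMA wounds and CMC 3 was just below CMA 4. The time of day of collection is not stated in the sources used here.

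Pan-macrophage genes and complement were both lower in CMA in most members. Of 20 pan-macrophage genes, 17 were lower, with a median of -0.29 (-0.18 without CMA 2), and 4 had an unadjusted p under 0.05 beside 2.32% of all genes. Of 17 complement genes, 16 were lower, with a median of -0.34, and 5 had such a p. The 3 chains of C1q, which opens the classical pathway and is made largely by macrophages, count in both lists. C1qa (ENSMUSG00000036887, chromosome 4, 136895917 to 136898803) stood at 144, 133, 169.5, 176 and 174 CPM in CMA 1 to 5 and 177, 292, 187, 181 and 194 CPM in CMC 1 to 5. It did not overlap, with CMC 2 far above the other CMC wounds and CMC 1 just above CMA 4. C1qc stood at 156, 123, 166, 169.98 and 204 CPM in CMA 1 to 5 and 200.03, 307, 209.8, 182 and 218 CPM in CMC 1 to 5 and C1qb differed by -0.31, both with overlap.

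Log2 fold changes were -0.37 ± 0.16 (-0.22 without CMC 2) for C1qa and -0.45 ± 0.17 for C1qc. Of genes named after their values were seen, Lyz2, lysozyme of macrophages and neutrophils, differed by -0.41 (-0.27 without CMA 2), and C1s1, a protease of the C1 complex, by -0.34 (-0.53 without CMA 4), both at an unadjusted p under 0.05. C3, the central component, had 141, 459, 154, 525 and 166 CPM in CMA 1 to 5 and 340.3, 624, 221, 483 and 576 CPM in CMC 1 to 5, which overlapped widely. Defining macrophage receptors were lower at similar sizes without reaching that p. Csf1r differed by -0.34 (-0.21 without CMC 2), Adgre1 (F4/80) by -0.29 (-0.49 without CMA 5 and -0.17 without CMA 2) and Cd68 by -0.31 (-0.53 without CMA 5 and -0.18 without CMA 2), whereas Cx3cr1 was higher at 0.37.

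List scores, each the average log2 CPM over a list's tested genes, showed the spread between wounds. The pan-macrophage score was 6.45, 5.97, 6.41, 6.58 and 6.85 in CMA 1 to 5 and 6.88, 6.94, 6.78, 6.33 and 6.62 in CMC 1 to 5. CMA 5 lay above CMC 3, 4 and 5, and CMA 2 was the lowest of the 10. For complement the score was 5.94, 6.14, 5.94, 6.69 and 6.26 in CMA 1 to 5 and 6.55, 7.0, 6.23, 6.44 and 6.6 in CMC 1 to 5. CMC 2 was the highest, and the median of the complement list ranged between -0.46 (without CMA 4) and -0.24 (without CMC 2) as single libraries were left out. Against Ctrl its median was 0.013 for CMA and 0.37 for CMC, with shared controls.

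Chemokines were lower in CMA for 16 of 17 tested members, with a median of -0.65, the most negative of the lists. Only Ccl8, an attractant of monocytes, T cells and eosinophils, had an unadjusted p under 0.05. It stood at 58, 81.7, 73.6, 77.4 and 64.4 CPM in CMA 1 to 5 and 68.7, 288, 78.1, 140.03 and 116 CPM in CMC 1 to 5, and the log2 fold change of -0.96 ± 0.40 became -0.51 without CMC 2. Ccl6 differed by -0.64 (-0.34 without CMC 2). The neutrophil attractants Cxcl1, Cxcl2 and Cxcl5, named after their values were seen, differed by -1.55 (-2.98 without CMA 4 and -0.72 without CMC 2), -1.11 (-2.77 without CMA 4 and -0.64 without CMC 1) and -1.54 (-4.29 without CMA 4), each with an SE above 1. Cxcl5 stood at 2.95, 0.242, 1.46, 36.2 and 0.282 CPM in CMA 1 to 5 and 32.9, 51.3, 5.58, 27.6 and 0.605 CPM in CMC 1 to 5. It was above 20 CPM in 1 of 5 CMA wounds and in 3 of 5 CMC wounds. Cxcl14, a chemokine of resting epithelium, was the exception at 0.64.

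Cytokines and their receptors were lower in CMA for 15 of 20 members (median -0.10, -0.19 without CMA 4 and -0.061 without CMA 1), with Il10rb, a subunit of the IL-10 receptor, at -0.23 and Tslp, an epithelial alarmin, at -1.13. Neutrophil genes were split, 6 higher and 8 lower (median -0.30, -0.78 without CMA 4 and -0.02 without CMC 1). Stfa3, a stefin that close paralogs resemble, and Lcn2 were higher at 0.94 and 0.76 (0.35 without CMA 3), and both are also made by keratinocytes. MHC class II genes (7 of 8 higher, median 0.075, -0.034 without CMA 2 and 0.14 without CMA 3), interferon-induced genes (18 of 28 higher, 0.044, -0.037 without CMA 3 and 0.16 without CMC 4) and T and NK cell genes (11 of 21 higher, 0.02, -0.087 without CMC 2 and 0.10 without CMA 3) had small medians. None of the 3 lists had a member at an unadjusted p under 0.05.

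Differentiated epidermis was higher in CMA throughout its list. All 23 tested suprabasal and cornified keratinocyte genes were higher in CMA, with a median of 0.55, and 6 had an unadjusted p under 0.05 beside 3.84% of all genes. 0 were called. Krt10 (ENSMUSG00000019761, chromosome 11, 99385254 to 99389364), the keratin of the spinous layer, stood at 1876, 1618, 3617, 2259 and 1475 CPM in CMA 1 to 5 and 1570.1, 691, 1226, 1347 and 1391 CPM in CMC 1 to 5. CMA 3 was the highest and CMC 2 the lowest, and CMA 5 lay inside the CMC range. The log2 fold change was 0.80 ± 0.27, with an unadjusted p of 0.0067, and 0.54 without CMA 3.

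Ivl (involucrin), a protein of the cornified envelope, stood at 57.1, 95, 76.9, 53.7 and 38 CPM in CMA 1 to 5 and 38.3, 19.4, 44.8, 39.7 and 41.5 CPM in CMC 1 to 5, with CMA 5 again low and CMC 2 far below the others. Its log2 fold change was 0.80 ± 0.29. The other 4 such members, named for that p, were Krt1, the partner of Krt10, at 0.76 (0.44 without CMA 3), Krtdap (0.67), Dsg1a, a desmosomal cadherin with close paralogs (0.69), and Tgm3, a transglutaminase that cross-links the envelope, at 0.95 (0.58 without CMA 3). Their groups overlapped. The score of the list was 7.84, 8.03, 8.26, 8.05 and 7.36 in CMA 1 to 5 and 7.75, 6.59, 7.76, 7.49 and 7.01 in CMC 1 to 5. CMA 1 to 4 were above all 5 CMC wounds and CMA 5 was not. The median of the list ranged between 0.39 (without CMC 2) and 0.72 (without CMC 1) as single libraries were left out, and against Ctrl it was 0.62 for CMA and 0.032 for CMC.

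Activated keratinocytes of the wound edge showed the same direction less evenly. 17 of 19 tested members of that list were higher in CMA (median 0.35, 0.21 without CMC 2 and 0.77 without CMC 1), 2 at an unadjusted p under 0.05 beside 3.84% of all genes. Against Ctrl the median was 0.99 for CMA and 0.51 for CMC, with shared controls. Serpinb3a, a protease inhibitor of stressed epithelium with close paralogs, stood at 3.44, 6.78, 48.4, 8.53 and 2.54 CPM in CMA 1 to 5 and 6.73, 0.638, 2.68, 2.78 and 1.3 CPM in CMC 1 to 5. Il1f6 (IL-36 alpha), an epidermal cytokine, stood at 8.97, 13.4, 32.9, 9.86 and 5.73 CPM in CMA 1 to 5 and 8.41, 1.7, 8.03, 5.57 and 2.68 CPM in CMC 1 to 5. CMA 3 was the highest for both, and without it their log2 fold changes of 2.32 and 1.44 became 0.92 and 0.85.

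The stress keratin Krt16 had 1193, 1015, 2129, 1482 and 416 CPM in CMA 1 to 5 and 1619.7, 391, 1129, 764 and 633 CPM in CMC 1 to 5, with a log2 fold change of 0.46 ± 0.57 (0.18 without CMA 3 and 0.77 without CMC 1). Its highest wounds were CMA 3 and CMC 1 and its lowest CMA 5 and CMC 2. Basal keratinocyte genes were split, with 8 of 13 higher (median 0.11, 0.055 without CMC 2 and 0.21 without CMC 5). Krt5, the basal keratin, stood at 1354, 1786, 1581, 1372 and 1491 CPM in CMA 1 to 5 and 1025, 963, 1216, 1169 and 1433 CPM in CMC 1 to 5 and Itga6, the integrin of hemidesmosomes, differed by 0.22, both at an unadjusted p under 0.05. Krt14, the partner of Krt5, had 4551, 3726, 4482, 4293 and 1999 CPM in CMA 1 to 5 and 4036, 1329, 3155, 2501 and 2167 CPM in CMC 1 to 5 and a log2 fold change of 0.53 ± 0.33.

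Cell cycle genes were higher in CMA for 28 of 29 tested members, with small differences (median 0.23, 0.15 without CMA 3). Nusap1, a spindle protein whose exons overlap Oip5, stood at 14.5, 13, 15.2, 12.6 and 13.3 CPM in CMA 1 to 5 and 11.6, 9.78, 10.5, 11.7 and 11 CPM in CMC 1 to 5, without overlap. Its log2 fold change of 0.33 ± 0.15 was the one member at an unadjusted p under 0.05, and Cdc20, an activator of the anaphase ligase, differed by 0.37 (0.21 without CMA 3). Against Ctrl the median was -0.083 for CMA and -0.31 for CMC, with shared controls. The score was 4.7, 4.28, 4.8, 4.33 and 4.71 in CMA 1 to 5 and 4.48, 4.32, 4.54, 4.29 and 4.24 in CMC 1 to 5, where CMA 2 and 4 fell inside the CMC range. Ctrl scores ran from 4.26 to 5.17, a range that held all CMA wounds and all CMC wounds but CMC 5.

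Structures taken along with a wound also differed between the libraries. All 15 tested hair follicle genes were higher in CMA, with a median of 2.5 and 0 at an unadjusted p under 0.05. Krt71, a keratin of the inner root sheath, named after its values were seen, stood at 0.491, 91.2, 365, 1.32 and 50.1 CPM in CMA 1 to 5 and 8.19, 0, 0.349, 4.64 and 35.5 CPM in CMC 1 to 5. CMA 2, 3 and 5 and CMC 5 held most of it, and Ctrl wounds ran from 0.0843 to 2174 CPM with a median of 3.86. Against Ctrl the median of the hair list was -1.89 for CMA and -4.66 for CMC, with the 2174 CPM of Krt71 in Ctrl 3. Shh, the signal of the hair bulb, and Krt72, a root sheath keratin, were the members with the smallest p. Shh differed by 2.34, and Krt72 was at 0 in 4 of 5 CMC wounds and at 0, 1.94, 13.7, 0 and 0.282 CPM in CMA 1 to 5. Many genes of the list had few counts in most wounds. The median of the list was 1.48 without CMA 3 and 3.73 without CMC 5. Melanocyte genes went the same way in 9 of 11 members (median 1.2, 0.66 without CMA 3), with Tyr, the pigment enzyme, at 0.491, 3.27, 8.33, 0.361 and 1.78 CPM in CMA 1 to 5 and 0.449, 0.744, 0.233, 0.812 and 1.12 CPM in CMC 1 to 5 and Mitf, its regulator, at -0.17.

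Hair follicles contain keratinocytes. The hair score was -0.0072, 3.27, 4.78, 0.25 and 2.5 in CMA 1 to 5 and 0.81, -0.63, -0.35, 0.52 and 2.2 in CMC 1 to 5. CMA 3 was the highest wound in both the hair score and the suprabasal score. CMA 1 and 4, low in hair genes, were also above all CMC wounds in the suprabasal score. The part of hair follicles in the epidermal and cell cycle values was not tested. Skeletal muscle was lower in CMA for 21 of 22 genes (median -0.30, -0.53 without CMA 2 and -0.12 without CMC 4), with Myh2 and Ttn at -0.86 (-1.4 without CMA 2) and -0.44 (-0.24 without CMA 3). Adipocyte genes were lower for 14 of 18 (median -0.13, -0.34 without CMA 2 and -0.002 without CMC 5) and red cell genes for 5 of 5 (median -0.54, led by the beta globins Hbb-bt at -0.65 and Hbb-bs at -0.59). Among adipocyte genes Acaca, of fatty acid synthesis, differed by 0.14 and Lep, the hormone leptin, by -0.45 (-0.70 without CMA 5 and -0.27 without CMC 5). None of these 3 lists had a member at an unadjusted p under 0.05, and the part of muscle, fat and blood in the other lists was not tested.

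Matrix genes and their enzymes were lower in CMA in most members. The fibroblast list had 13 of 16 members lower in CMA (median -0.20, -0.31 without CMA 4 and -0.12 without CMA 5) and the fibrillar collagen and matrix list 19 of 24 (median -0.13, -0.21 without CMA 1 and -0.05 without CMA 2). Col1a1, the main collagen of the dermis, stood at 36418, 30162, 25573, 30731 and 24132 CPM in CMA 1 to 5 and 28961, 22979, 27776, 27474 and 28069.6 CPM in CMC 1 to 5, a log2 fold change of 0.12 ± 0.16. CMA 1 was the highest and CMC 2 the lowest, and the other wounds were interleaved. Lum and Dcn, small proteoglycans that coat collagen fibrils, differed by -0.36 and -0.32 (-0.49 without CMA 4), and Col5a3 by -0.63. Of collagen folding and cross-linking genes 20 of 23 were lower (median -0.10, -0.21 without CMA 4 and -0.036 without CMA 2), with Loxl4 at 0.25 and Plod1 at -0.22.

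Matrix proteases and their inhibitors were lower for 22 of 24 (median -0.23). Mmp13, the interstitial collagenase of the mouse, stood at 53, 14.5, 36.7, 69.96 and 45.9 CPM in CMA 1 to 5 and 124, 53.6, 95.5, 75.4 and 59.9 CPM in CMC 1 to 5. Its log2 fold change was -0.89 ± 0.42, the one member at an unadjusted p under 0.05, and CMA 2 was the lowest wound. Adamts1 differed by -0.25 (-0.39 without CMA 2 and -0.15 without CMA 1). Among contractile and myofibroblast genes 9 of 15 were lower (median -0.11, 0.051 without CMC 3), with Cnn1 at 0.53 (0.23 without CMA 1 and 0.83 without CMC 5) and Tpm1 at -0.26 (-0.41 without CMA 2).

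In the TGF-beta pathway, where Ccn2 is the one member at an unadjusted p under 0.05, 17 of 23 genes were lower in CMA (median -0.066, -0.041 without CMC 2). Inhba, the activin A subunit, stood at 39.8, 23.2, 25.8, 44.8 and 13.7 CPM in CMA 1 to 5 and 57.6, 99.4, 41.5, 26 and 26.1 CPM in CMC 1 to 5, with CMC 2 the highest, and differed by -0.77 ± 0.43 (-0.37 without CMC 2). The ligands Tgfb1, Tgfb2 and Tgfb3 differed by -0.13, -0.072 and 0.00074, and the receptors Tgfbr1, Tgfbr2 and Tgfbr3 by -0.025, -0.21 (-0.38 without CMA 4 and -0.10 without CMC 2) and -0.15. Of wound growth factors and receptors 14 of 23 were lower (median -0.10, -0.052 without CMC 4), 2 at an unadjusted p under 0.05. Pdgfc, a ligand of the PDGF alpha receptor, stood at 37, 24.9, 28.4, 32.2 and 26.9 CPM in CMA 1 to 5 and 45.9, 48.9, 36.1, 40.5 and 38.8 CPM in CMC 1 to 5, with a log2 fold change of -0.49 ± 0.14. All CMC wounds but CMC 3 were above all CMA wounds. Nrg1, a ligand of the ErbB receptors, differed by -0.68. The epidermal EGF receptor ligands Areg, Ereg and Tgfa, named after their values were seen, were higher in CMA at 0.76 (0.31 without CMA 3), 0.76 (0.40 without CMA 3) and 0.62.

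Angiogenic signalling genes were lower in CMA for 17 of 20 (median -0.22) and blood endothelial genes for 19 of 20 (median -0.19), and Kdr, Tek and Tie1 belong to both lists. Angpt1, the ligand that steadies vessels, stood at 8.36, 8.11, 6.64, 7.45 and 7.51 CPM in CMA 1 to 5 and 6.28, 11.8, 9.89, 9.16 and 10.7 CPM in CMC 1 to 5, a log2 fold change of -0.33 ± 0.16 and the one member at an unadjusted p under 0.05. Nrp1, a VEGF co-receptor, and the endothelial genes Robo4 and Mmrn2 differed by -0.22, -0.38 and -0.28. Vegfa stood at 92, 80.3, 63.1, 178 and 41.8 CPM in CMA 1 to 5 and 118, 124, 101, 98.7 and 73.6 CPM in CMC 1 to 5, with CMA 4 the highest and CMA 5 the lowest, and its log2 fold change of -0.18 was 0.0057 without CMA 5 and -0.57 without CMA 4.

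Signs of RNA quality or handling were compared in the same way. Mitochondrially encoded genes held 0.748% to 0.980% of counts in CMA and 0.862% to 1.15% in CMC, and all 11 tested were lower in CMA (median -0.16, with mt-Nd2 at -0.34 (-0.19 without CMC 5) and mt-Co2 at -0.24 (-0.13 without CMA 4)). Ribosomal protein genes were higher in CMA for 26 of 28 (median 0.09, 0.02 without CMA 3 and 0.14 without CMA 5), with Rplp0 at 0.21 (0.13 without CMA 3) and Rpl18 at 0.17. Immediate early genes were split, 9 higher and 11 lower (median -0.018, -0.12 without CMC 4 and 0.047 without CMC 3). Of heat shock chaperones 7 of 15 were higher (median -0.056, 0.057 without CMC 5, although the mean score was 0.04 higher in CMA). Hspa1a and Hspa1b, both higher in CMA, were the 2 members at an unadjusted p under 0.05, beside 3.84% of all genes. Hspa1a, an inducible Hsp70, stood at 15.6, 21.2, 26.3, 14.5 and 14.7 CPM in CMA 1 to 5 and 13.9, 13.2, 12.2, 14.4 and 12.8 CPM in CMC 1 to 5, without overlap, and its near-identical neighbour Hspa1b differed by 0.45 (0.30 without CMA 3). Reads of these copies cannot always be told apart. Whether any of these values plays a part in the other differences was not tested.

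The remaining lists had medians between -0.15 and 0.22. Monocyte and dendritic cell genes were higher in CMA for 6 and lower for 10 of 16 (median -0.069, -0.12 without CMA 1 and -0.028 without CMC 3), with 1 higher and 0 lower at an unadjusted p under 0.05. B and plasma cell genes were higher in CMA for 0 and lower for 4 of 4 (median -0.095, -0.26 without CMA 5 and -0.034 without CMC 3), with 0 higher and 0 lower at an unadjusted p under 0.05. Mast cell genes were higher in CMA for 4 and lower for 7 of 11 (median -0.11, 0.03 without CMC 2), with 0 higher and 0 lower at an unadjusted p under 0.05. Epcam, which marks Langerhans cells and also epithelial cells, differed by 0.68, the B cell receptor gene Ighm by -0.22 (-0.43 without CMA 2 and -0.091 without CMC 2), and Hdc, the histamine enzyme of mast cells, by -0.74 (-0.48 without CMC 1). Lymphatic endothelial genes were higher in CMA for 5 and lower for 2 of 7 (median 0.075, -0.028 without CMC 1 and 0.20 without CMA 4), with 0 higher and 0 lower at an unadjusted p under 0.05. Pericyte genes were higher in CMA for 2 and lower for 7 of 9 (median -0.15), with 0 higher and 1 lower at an unadjusted p under 0.05. Abcc9, a channel subunit of mural cells, differed by -0.30. Schwann cell genes were higher in CMA for 9 and lower for 3 of 12 (median 0.22, 0.071 without CMA 5), with 0 higher and 1 lower at an unadjusted p under 0.05. Sebaceous gland genes were higher in CMA for 5 and lower for 8 of 13 (median -0.072, -0.25 without CMA 5 and 0.085 without CMC 5), with 1 higher and 1 lower at an unadjusted p under 0.05. Cnp, a myelin enzyme, differed by -0.28, the duct keratin Krt79 by 0.81 and Soat1, which esterifies cholesterol, by -0.27. Hypoxia and glycolysis genes were higher in CMA for 7 and lower for 16 of 23 (median -0.044, -0.15 without CMA 4 and 0.03 without CMC 1), with 0 higher and 0 lower at an unadjusted p under 0.05. Arginine and polyamine genes were higher in CMA for 7 and lower for 11 of 18 (median -0.10, -0.023 without CMA 5), with 0 higher and 0 lower at an unadjusted p under 0.05. Nuclear genes of the respiratory chain were higher in CMA for 8 and lower for 12 of 20 (median -0.013, -0.052 without CMC 3 and 0.03 without CMA 1), with 0 higher and 0 lower at an unadjusted p under 0.05. Egln3, an oxygen sensor, differed by 0.49 (0.30 without CMC 5), Azin1, the antizyme inhibitor, by -0.17 and Sdhc, a subunit of complex II, by -0.11.

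**Figure D3:**
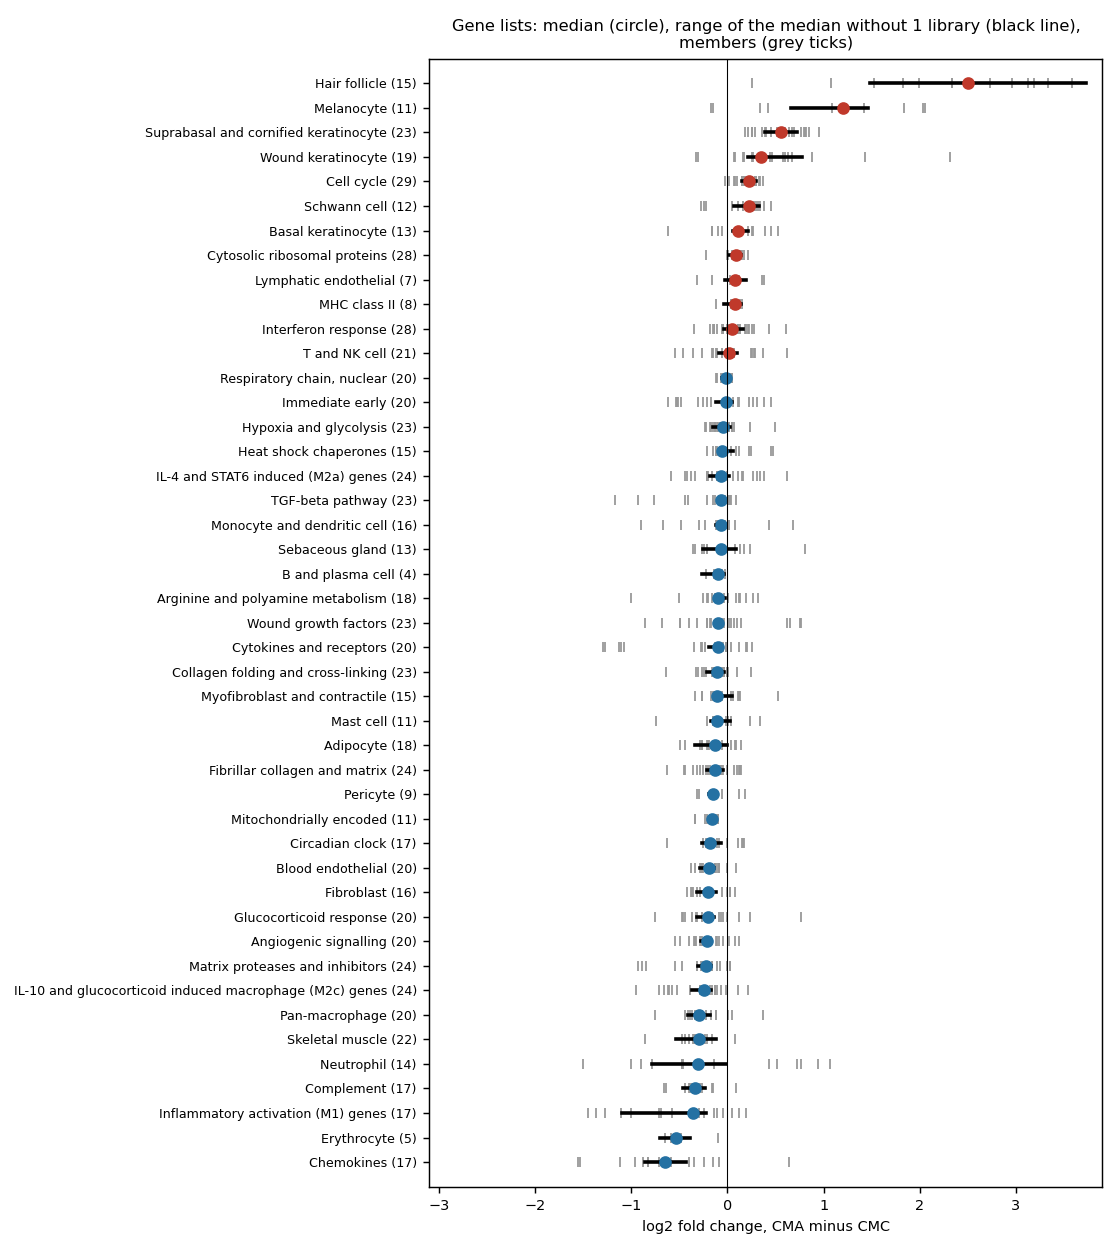
Each row is a gene list with its number of tested members, and the horizontal axis is the log2 fold change, CMA minus CMC. Circles are list medians, red above 0 and blue below, grey ticks are members, and black lines span the medians obtained by leaving out each of the 10 libraries in turn. The line of the chemokine list stays below 0 and that of the suprabasal list above 0.

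**Figure D4:**
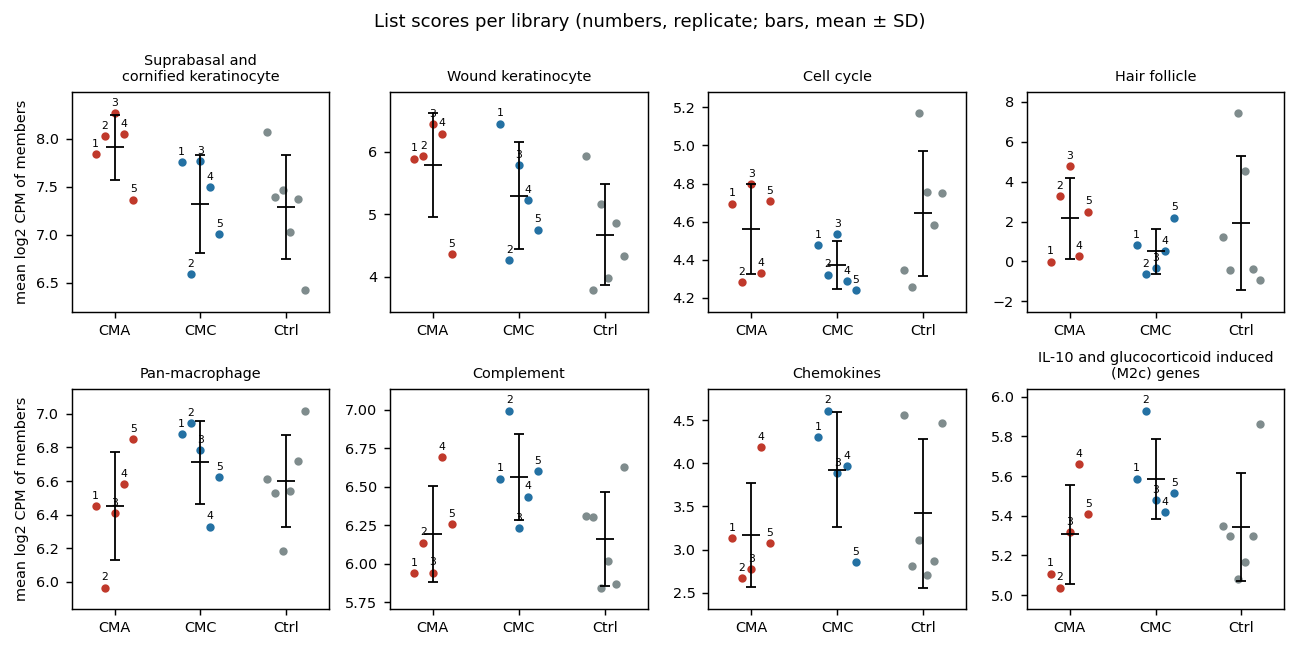
Points are list scores (mean log2 CPM of the tested members) in single libraries of CMA, CMC and Ctrl, numbered by replicate for CMA and CMC, with bars for the mean ± SD. In all 8 panels the CMA and CMC ranges overlap, with CMA 5 and CMC 2 low in both keratinocyte panels and CMA 4 high in the chemokine panel.

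Wounds of either medium overlapped in their main differences. A principal component analysis of the 500 most variable genes put 34.7% of the variance on a component that set hair keratins such as Krt71 and Krt25 against Cxcl5, Nos2, Cxcl3 and Saa3. CMA 2, 3 and 5 and CMC 5 lay on the hair side, CMA 4 lay with CMC 1 to 4 on the other side, and CMA 1 lay near 0. The difference between the groups on this component was not tested. The second component, with 22.6%, set Sprr2b, Lce3a and Serpinb3a of the epidermis against Igfn1 and Nos1, and CMA 5, CMC 2 and CMC 5 were at the low end of it.

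**Figure D5:**
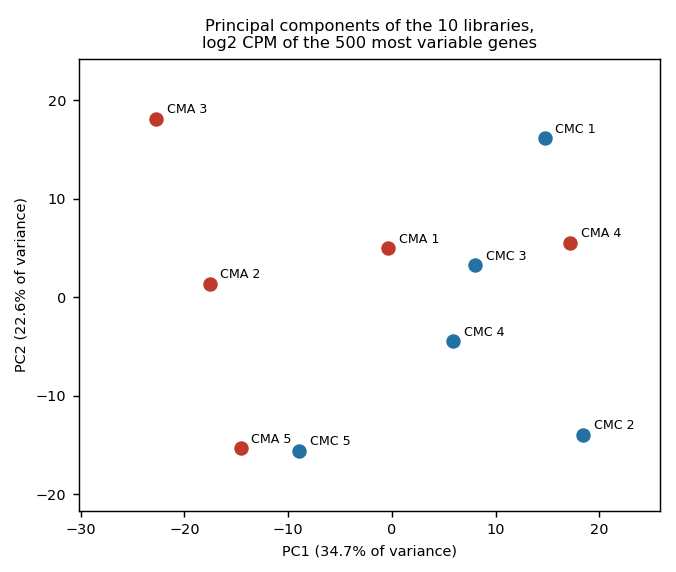
The 10 libraries are placed by the first (horizontal, 34.7% of variance) and second (vertical, 22.6%) principal component of log2 CPM in the 500 most variable genes, with CMA in red and CMC in blue. The groups overlap on both axes, and CMA 4 has a first component within the CMC range.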

How the data were processed

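The authors deposited raw counts, 1 table of 54232 genes per library. Per the labels' protocols, total RNA of frozen wounds was depleted of ribosomal RNA and made into libraries with a NEBNext Ultra RNA kit. The submitters' processing notes name bcl2fastq 2.17, FastQC, cutadapt, STAR, featureCounts, DESeq2 and GRCm38. With the annotation release not given in the sources used here, symbols and coordinates come from GENCODE M21 (54165 genes matched).

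Samples were grouped by label. edgeR 4.0.16 in R 4.3.3 filtered genes (filterByExpr), scaled by TMM and fitted a robust quasi-likelihood model with 1 term per group to all 24 libraries, so that all groups share 1 estimate of the spread. The contrast was CMA minus CMC with Benjamini-Hochberg adjustment over 18978 genes and a threshold of 0.05. CPM are TMM-scaled, ± beside a log2 fold change is its SE, and intervals are 95%. Values without a named library stand beside list medians, and beside fold changes of at least 0.2, that this moved by over 1.5 times or across 0. A score uses log2 CPM with a prior count of 2. At 8323331 counts or more per library, precision was set mainly by the spread between wounds, except for genes with few counts, such as agouti, where sampling noise also weighs. Alternatives used RLE or upperquartile scaling, no filter or a stricter one, no robust dispersion, the 10 libraries alone, DESeq2 1.42.0, limma 3.58.1 and leaving out each library.

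The comparison, the 45 gene lists (846 entries, 2 without an identifier, 797 tested) and the panel of 18 genes were chosen with earlier results of these data known. Named genes are those called (0), the 12 protein-coding genes with the smallest p in each direction and a mean log2 CPM of at least 0, the 2 members with the smallest p of each list described beyond its counts and median, and the panel. Any other member was named after its values were seen. Some list members are not reported here. Where lists share genes, their counts are not independent. Members of a list were also measured in the same wounds, so a count of members is not a count of independent observations.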

Additional observations from a re-analysis of the deposited data

Results flagged for a closer look

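Among 338 groups of 5 values tested (each named gene and each list score, in CMA and in CMC), 21 had 1 wound whose gap to its nearest neighbour exceeded 0.71 of the group's range. Chance alone marks about 1 group in 20 if values are normally distributed and groups independent. CPM of genes measured in the same wounds need not meet that condition. In CMA 3, Aox4 stood at 99.6 CPM beside 12.5 to 22.1 in the other CMA wounds, Serpinb3a at 48.4 beside 2.54 to 8.53, Il1f6 at 32.9 beside 5.73 to 13.4 and Krt72 at 13.7 beside 0 to 1.94.

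In CMA 4, Nos2 stood at 157 CPM beside 2.16 to 8.36 in the other 4 CMA wounds, Socs3 at 86.9 beside 20.8 to 38.8, Hdc, the enzyme that makes histamine, at 13.5 beside 5.4 to 6.39, and agouti (a) at 0.962 beside 1.35 to 1.47. Its scores for the M1 list (3.74 beside 1.80 to 2.25) and for cytokines and receptors (4.39 beside 3.74 to 3.82) stood apart too.

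In CMA 2, Retnla was at 31.1 CPM beside 4.50 to 8.29 and Tpm1 at 573 beside 342 to 402. In CMA 5 the wound keratinocyte score was 4.36 beside 5.89 to 6.44.

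CMC 2 stood apart among the CMC wounds for Mrc1 (558 CPM beside 350.0 to 407), Cebpd (69.0 beside 29.3 to 36.5), C1qc (307 beside 182 to 218), C1qa (292 beside 177 to 194) and Ccl6 (349 beside 130 to 189) on the high side. On the low side were Col1a1 (22979 beside 27474 to 28961) and Ivl (19.4 beside 38.3 to 44.8). Krt72 was at 0.432 CPM in CMC 5 and at 0 in the other CMC wounds.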

How the results depend on the processing

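The number of called genes was 0 under each of the 18 alternatives. No paired analysis was possible because the labels give no replicate numbers. The numbers used here follow the order of the samples in the series and pair nothing. The number of genes with unadjusted p under 0.05 lay between 625 (without CMA 3) and 1609 (without CMA 4) with 1 library left out, and their share higher in CMA was 62.3%, or 52.2% without CMA 3. Genes with CMA above CMC in all libraries numbered 117, and 143 to 333 without 1 library, and those with CMA below numbered 73, and 126 to 235 without 1 library, since fewer libraries have to be separated. Without a filter on low counts the latter number was 134, since more genes enter. This leaving out of libraries for the counts without overlap was chosen after seeing the data. Among single genes, limma voom reversed Chil3 (0.21) and Retnla (-0.23), and the cause was not tested. With 1 library left out, 7 genes reversed in some settings: Arg1 (-0.71 to 0.20), Ccl24 (-0.31 to 0.22), Cd22 (-0.28 to 0.0044), Chil3 (-0.27 to 0.31), Ciita (-0.021 to 0.22), Retnla (-0.71 to 0.45) and Vegfa (-0.57 to 0.0057). The other 2208 refits of named genes kept their direction. For the melanocyte list, limma voom gave a median of 0.54.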

Other observations

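Genes not yet described included several of the epidermis. They were chosen after their values were seen, from the genes whose CMA and CMC libraries did not overlap, and none had an adjusted p under 0.05. Slurp1, a secreted protein of differentiated keratinocytes, ran from 5.9 to 14.5 CPM in CMA and from 3.83 to 5.35 CPM in CMC. Pla2g2f, a phospholipase of the suprabasal epidermis, ran from 114 to 206 CPM in CMA and from 51.3 to 107 CPM in CMC. Dlx3, a transcription factor of epidermis and hair, ran from 13.5 to 32.9 CPM in CMA and from 3.83 to 12 CPM in CMC. Dlx3 had an SE of 0.68 beside its log2 fold change of 1.22.

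On the other side, Wfdc17, a small secreted protein of myeloid cells, ran from 14.8 to 35.6 CPM in CMA and from 36.1 to 112 CPM in CMC. CMC 2 alone gave the high end, and the log2 fold change of Wfdc17 was -0.99, or -0.55 without CMC 2. Clec4a1, a C-type lectin of myeloid cells, ran from 12.2 to 19.3 CPM in CMA and from 19.4 to 23 CPM in CMC. Nr4a3, an orphan nuclear receptor among the immediate early genes, ran from 3.44 to 4.45 CPM in CMA and from 4.49 to 7.31 CPM in CMC. The smallest unadjusted p of all genes belonged to 3110062G12Rik (ENSMUSG00000103634, chromosome 1, 176745564 to 176746982), a transcript that still awaits experimental support in the annotation. It ran from 0.601 to 1.41 CPM in CMA and from 1.99 to 3.59 CPM in CMC, with a log2 fold change of -1.32 ± 0.26 (SE), an unadjusted p of 4.35e-05 and an adjusted p of 0.795 in edgeR.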
